A study of Homo sapiens with 8 samples.

Results

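The 50 genes described here work in mitosis: they encode the kinases and cyclins that start it, the checkpoint and ubiquitin ligase factors that time its end, the kinesins and spindle proteins that move chromosomes, the kinetochore and passenger proteins that attach them, condensin subunits, and the transcription factors FOXM1 and MYBL2. They form a list chosen by function, with earlier results of these data known, and all 50 had a probe set among the 19775 genes measured. Shares of all genes given beside their counts are therefore a description and not an independent test of the list. The cells were NCI-H1975, an established human lung adenocarcinoma line that carries mutant EGFR. RNA came from cells cultured for 24 h under 8 conditions, with 1 Affymetrix array for each condition. In 4 of them 2 mM L-histidinol was present, together with 10 nM osimertinib and 1 µM alpelisib, with osimertinib alone, with alpelisib alone, or with vehicle (DMSO). The other 4 had the same drug treatments in the absence of L-histidinol. Osimertinib inhibits mutant EGFR, and alpelisib inhibits the alpha isoform of PI3-kinase, which signals downstream of EGFR. L-histidinol, an alcohol derived from histidine, blocks the charging of histidine tRNA, so that cells respond as if short of this amino acid. All cells came from 1 line in ordinary serum, and each condition had a single array here.

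Values are log2 intensities of the probe set with the highest mean for each gene, so a difference of 1 unit is 2-fold. Lower intensity may come from fewer cells in mitosis or from less transcript in each such cell, and these cannot be told apart in bulk RNA. Levels of different probe sets are not comparable, and only differences within a gene are compared. Each drug contrast sets 2 arrays (1 with and 1 without L-histidinol) against 2 arrays in a limma fit on all 8 arrays with additive terms for L-histidinol and drug. Its error is the departure from additivity and not the spread of repeated cultures, so p-values measure only the spread between these arrays. An error after ± is the standard error (SE) of that fit, and a gene is called at a Benjamini-Hochberg adjusted p below 0.05 over all 19775 genes. The arrays had closely similar distributions, with median intensities of 21.8 to 22.4. Of 8 epithelial and lung markers, 7 read at least 9.26 on every array and NKX2-1 had the widest range, with a highest reading of 9.64, while 9 measured markers of blood, stromal and endothelial cells lay between 1.48 and 5.43. These markers also moved with the treatments. Of the 8 epithelial and lung markers 6 were called higher with both drugs and 6 with osimertinib (NKX2-1 by 1.90 and 1.35). Of all 19775 genes 4233 and 3246 were called higher in these contrasts. With L-histidinol 5 of the 8 were called lower, against 9.17% of all genes. Of the 9 other markers 2 were called higher with both drugs, LUM (1.23) and CDH5 (0.78), at readings of 1.48 to 3.32, and none lower. That count was near the share of all genes called higher, 21.4%. The part of these shifts in the results on the mitosis genes was not tested. One RNA measure moved with L-histidinol: the ratio of 3' to 5' probe set intensity for ACTB was 1.10 to 1.15 in its presence, against 1.04 to 1.07 in its absence.

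Transcripts of these genes accumulate in late S and G2 phase and peak in mitosis. In resting cells the DREAM complex, built on the MuvB core, represses them, and in cycling cells MuvB joins MYBL2 (B-Myb) and then FOXM1 to activate them. MuvB reaches many of them through a short promoter element, the cell cycle genes homology region (CHR), often written TTTGAA, which commonly lies downstream of CCAAT boxes bound by NF-Y. CDK1 with cyclin B, PLK1 and the Aurora kinases then act on the proteins made, and the anaphase-promoting complex (APC/C) with CDC20 destroys cyclin B and securin to end mitosis.

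Promoter sequence from RefSeq (GRCh38.p14; a window of 250 bases before to 50 bases after each start) was matched for 44 of the 50 genes, and FOXM1, AURKA, BIRC5, UBE2C, TPX2 and TTK had no entry. The letters TTTGAA, searched on both strands (TTCAAA on the other), were present for 32 of the 44 genes (72.7%), against 15.6% of the 15368 tested genes with an entry. The letters CCAAT, also on both strands (ATTGG), were present for 32 of the 44 (72.7%), against 41.7%. Both were present for 24 of the 44 (54.5%), against 7.94%. The motifs were counted separately, so their matches may overlap, and a match is a description of the window only. The 120 bases that precede the start are shown for 6 genes whose stretch holds a TTTGAA match, chosen to cover a cyclin, a kinase, a midzone protein, a kinesin, an APC/C activator and a centromeric histone, and then for AURKB and MYBL2, which hold none and are among the genes lowered most. Where a gene had several windows, the stretch shown came from the first by chromosome position, or from the last for AURKB. Capitals mark both motifs on either strand, and all run 5′ to 3′ toward the start.
CCNB2 lies at chr15:59105026-59105145 on the plus strand.
CCNB2: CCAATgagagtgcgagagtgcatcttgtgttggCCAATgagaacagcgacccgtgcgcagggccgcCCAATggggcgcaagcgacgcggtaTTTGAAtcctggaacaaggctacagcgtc
PLK1 lies at chr16:23678769-23678888 on the plus strand.
PLK1: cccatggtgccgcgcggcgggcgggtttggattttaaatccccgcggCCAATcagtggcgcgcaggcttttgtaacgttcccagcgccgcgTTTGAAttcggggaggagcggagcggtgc
PRC1 lies at chr15:90994536-90994655 on the minus strand.
PRC1: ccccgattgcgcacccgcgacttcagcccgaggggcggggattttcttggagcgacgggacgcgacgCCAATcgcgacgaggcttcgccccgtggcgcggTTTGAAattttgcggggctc
KIF11 lies at chr10:92593010-92593129 on the plus strand.
KIF11: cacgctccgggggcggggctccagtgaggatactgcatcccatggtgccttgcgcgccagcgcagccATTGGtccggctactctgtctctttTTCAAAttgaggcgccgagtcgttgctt
CDC20 lies at chr1:43358861-43358980 on the plus strand.
CDC20: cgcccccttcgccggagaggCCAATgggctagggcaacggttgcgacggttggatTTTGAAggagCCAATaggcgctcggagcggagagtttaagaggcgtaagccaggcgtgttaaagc
CENPA lies at chr2:26785936-26786055 on the plus strand.
CENPA: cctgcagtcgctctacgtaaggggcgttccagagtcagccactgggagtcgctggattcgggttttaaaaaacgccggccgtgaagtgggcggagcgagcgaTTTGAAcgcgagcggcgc
AURKB lies at chr17:8210250-8210369 on the minus strand.
AURKB: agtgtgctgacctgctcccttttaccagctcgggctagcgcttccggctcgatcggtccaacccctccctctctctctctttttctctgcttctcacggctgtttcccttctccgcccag
MYBL2 lies at chr20:43666994-43667113 on the plus strand.
MYBL2: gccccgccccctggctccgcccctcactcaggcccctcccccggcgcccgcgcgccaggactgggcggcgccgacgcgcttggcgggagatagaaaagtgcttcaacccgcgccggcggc
In CCNB2, PLK1, PRC1, KIF11 and CENPA the match begins 18 to 29 bases before the start, and in CDC20 it begins 65 bases before it. The fall with both drugs had a median of -1.30 over the 32 genes with a TTTGAA match in the window and of -1.44 over the 12 without one, as fitted log2 differences from vehicle, and the ranges of both kinds overlapped.

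All 50 genes had lower fitted levels than vehicle with both drugs and with each drug alone, and the number called differed between treatments. With both drugs 50 of 50 were called lower, against 19.2% of all genes called lower in that contrast, and 41 of the 50 were at least 2-fold lower, against 3.51% of all genes. With osimertinib alone 45 of 50 were called lower and none higher, against 14.0% of all genes. With alpelisib alone 7 of 50 were called lower, against 4.38% of all genes. Among genes with a mean log2 intensity of at least 5, the shares of all genes were higher. There 50, 46 and 8 of the 50 were called lower with both drugs, osimertinib and alpelisib, against 31.1%, 23.9% and 9.04% of such genes. The median fitted log2 difference from vehicle was -1.34 with both drugs (range -2.51 to -0.64), -0.67 with osimertinib (-1.31 to -0.25) and -0.34 with alpelisib (-0.67 to -0.05). The alpelisib median was -0.16 without the vehicle array that lacked L-histidinol and -0.54 without the vehicle array with it. The 3 contrasts share the vehicle arrays. Both osimertinib arrays lay below both vehicle arrays for 48 of the 50 genes, all but KIF20A and SPC24, against 23.4% of all genes. Both alpelisib arrays did so for 28 of the 50 (56.0%), against 20.2% of all genes. In the absence of L-histidinol all 50 genes had the order vehicle, alpelisib, osimertinib, both drugs, highest to lowest, and 36 kept it in its presence as well (72.0%, against 9.8% of all genes). The both-drug array was the lowest of its arm in both arms for 50 of 50 genes, against 21.2% of all genes. The vehicle array without L-histidinol was the highest of all 8 for 49 genes, against 18.9% of all genes, and the exception was MAD2L1. In the absence of L-histidinol the intensity left with both drugs was a median 30.4% of the vehicle array (13.0% to 53.2% over the 50 genes), and in its presence 50.2% (23.8% to 82.4%).

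**Figure D1:**
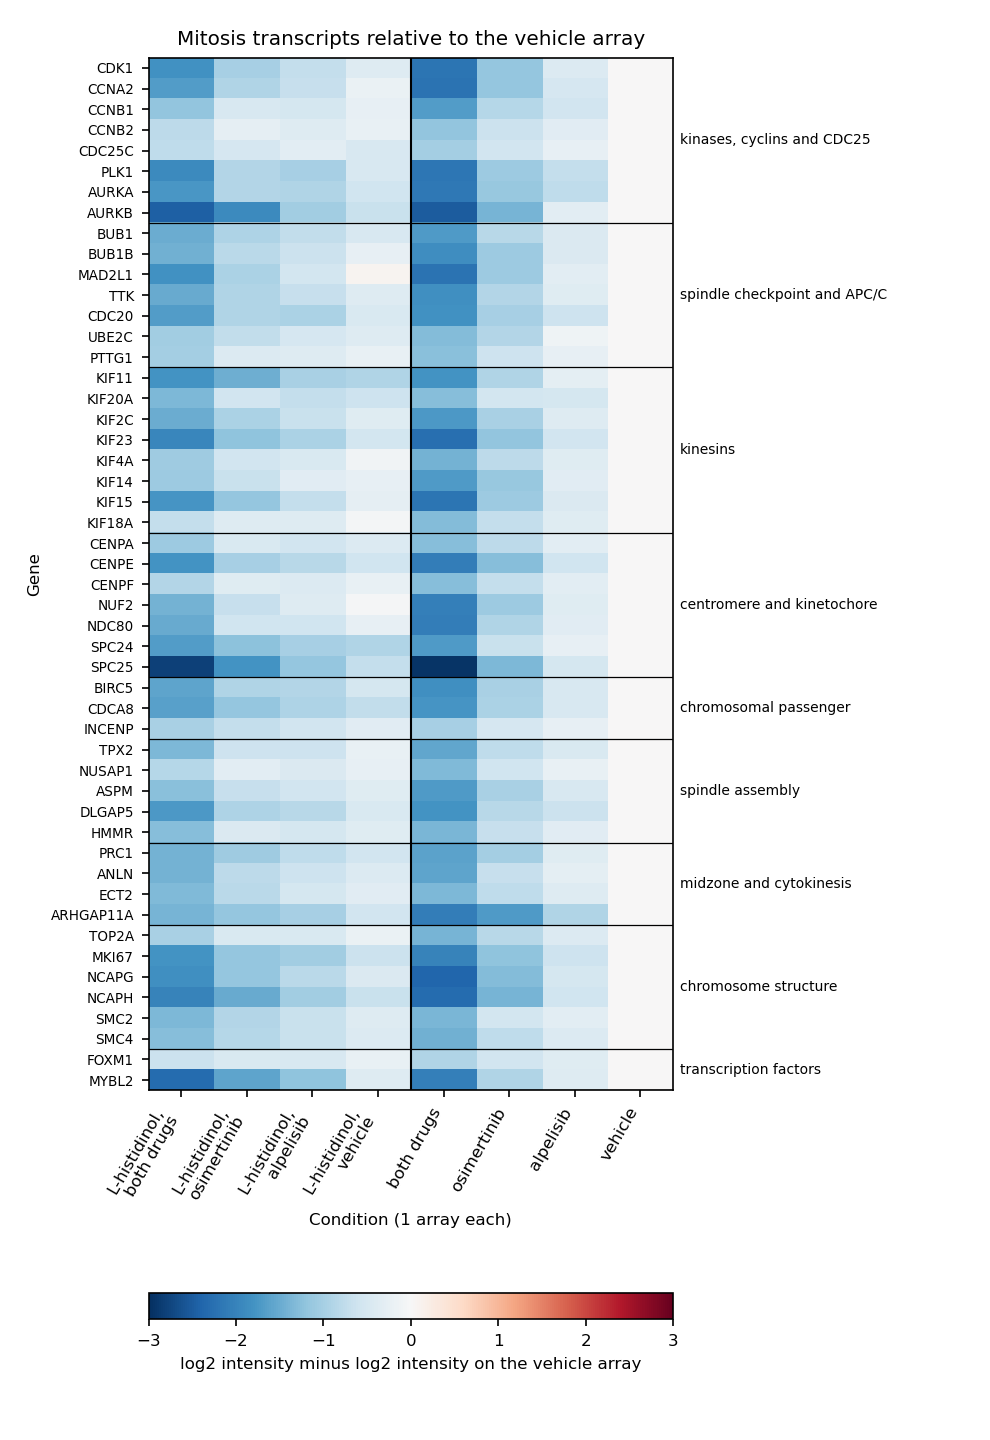
Log2 intensity of each of the 50 mitosis genes (rows, by class) on each of the 8 arrays (columns, 1 array per condition), as the difference from the vehicle array without L-histidinol. Blue is lower; the both-drug columns are the darkest of each arm for all 50 genes, and 49 genes are at or below 0 in every column.

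Among the kinases, cyclins and CDC25C, all 8 were called lower with both drugs and 6 of 8 with osimertinib, with medians of -1.72 and -0.73. CDK1, the kinase whose activation with cyclin B commits a cell to mitosis, read 8.62 with both drugs, 9.44 with osimertinib, 9.73 with alpelisib and 10.04 with vehicle in the presence of L-histidinol, and 8.25 with both drugs, 9.28 with osimertinib, 10.04 with alpelisib and 10.44 with vehicle in its absence. Both arrays with the combination lay below all the others, and the osimertinib arrays lay below the vehicle arrays. The fitted change was -1.80 ± 0.15 with both drugs (limma, adjusted p = 1.92e-06) and -0.88 ± 0.15 with osimertinib (adjusted p = 0.000851). CCNB1, cyclin B1, read 10.13 with both drugs, 10.83 with osimertinib, 10.77 with alpelisib and 11.08 with vehicle in the presence of L-histidinol, and 9.65 with both drugs, 10.45 with osimertinib, 10.74 with alpelisib and 11.31 with vehicle in its absence. Its osimertinib array with L-histidinol stood above the alpelisib array of the same arm, so the 2 single drugs did not keep one order. PLK1, which matures centrosomes and helps to activate CDK1, read 6.57 with both drugs, 7.61 with osimertinib, 7.48 with alpelisib and 8.02 with vehicle in the presence of L-histidinol, and 6.32 with both drugs, 7.40 with osimertinib, 7.78 with alpelisib and 8.49 with vehicle in its absence. It was 1 of the 7 genes called lower with alpelisib, at -0.62 ± 0.15 (limma, adjusted p = 0.0252), and it fell by 1.81 on the log2 scale with both drugs. Its alpelisib call was lost with the mean of probe sets (limma, adjusted p = 0.0642) and with no intensity trend (0.0992). AURKA, the centrosome and spindle pole kinase, read 8.63 with both drugs, 9.48 with osimertinib, 9.46 with alpelisib and 9.76 with vehicle in the presence of L-histidinol, and 8.21 with both drugs, 9.23 with osimertinib, 9.62 with alpelisib and 10.37 with vehicle in its absence. The 2 osimertinib arrays lay below both vehicle arrays, and the alpelisib arrays were also below them. AURKB, the kinase of the chromosomal passenger complex, read 7.33 with both drugs, 7.86 with osimertinib, 8.72 with alpelisib and 9.09 with vehicle in the presence of L-histidinol, and 7.28 with both drugs, 8.38 with osimertinib, 9.45 with alpelisib and 9.77 with vehicle in its absence. It showed the largest fall of the 50 with osimertinib, -1.31 ± 0.15 (limma, adjusted p = 6.31e-05), and its alpelisib array without L-histidinol was above the vehicle array with it. CCNA2, cyclin A2, changed by -1.84 with both drugs and -0.92 with osimertinib. The mitotic cyclin CCNB2 (cyclin B2) and CDC25C, the phosphatase that activates CDK1, were called lower with both drugs (-0.87 and -0.64) and not with osimertinib, where their fitted differences were -0.34 (limma, adjusted p = 0.0697) and -0.29 (adjusted p = 0.154).

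The 7 spindle checkpoint and APC/C genes were called lower with both drugs and with osimertinib alone, with medians of -1.48 and -0.70. BUB1, a checkpoint kinase that also marks centromeric histone H2A, read 7.87 with both drugs, 8.42 with osimertinib, 8.61 with alpelisib and 8.87 with vehicle in the presence of L-histidinol, and 7.66 with both drugs, 8.52 with osimertinib, 8.92 with alpelisib and 9.35 with vehicle in its absence. Its 4 arrays with osimertinib, alone or combined, lay below the other 4. CDC20, the APC/C activator that the checkpoint holds in check, read 9.12 with both drugs, 9.89 with osimertinib, 9.84 with alpelisib and 10.35 with vehicle in the presence of L-histidinol, and 8.99 with both drugs, 9.81 with osimertinib, 10.17 with alpelisib and 10.80 with vehicle in its absence. Its alpelisib array lay close to the osimertinib array in the presence of L-histidinol and above it in its absence, and the gene was called lower with alpelisib, at -0.57 ± 0.12 (limma, adjusted p = 0.0125). MAD2L1, which encodes the checkpoint protein MAD2 that binds CDC20, read 8.15 with both drugs, 9.00 with osimertinib, 9.41 with alpelisib and 10.04 with vehicle in the presence of L-histidinol, and 7.74 with both drugs, 8.86 with osimertinib, 9.64 with alpelisib and 9.96 with vehicle in its absence. It was the only gene of the 50 whose vehicle array with L-histidinol exceeded the one without it. It was called lower with all 3 drug treatments: -2.06 ± 0.12 with both, -1.07 ± 0.12 with osimertinib and -0.47 ± 0.12 with alpelisib (limma, adjusted p = 0.0237 for alpelisib). The alpelisib call was lost with the mean of probe sets (limma, adjusted p = 0.0851), with a probe set not marked for cross-hybridization (0.228) and with no intensity trend (0.107). UBE2C, the E2 enzyme of the APC/C, read 10.48 with both drugs, 10.77 with osimertinib, 11.01 with alpelisib and 11.13 with vehicle in the presence of L-histidinol, and 10.21 with both drugs, 10.64 with osimertinib, 11.40 with alpelisib and 11.52 with vehicle in its absence. Here alpelisib was close to vehicle in both arms, at a fitted -0.12 ± 0.14 (limma, adjusted p = 0.673). The checkpoint kinases BUB1B and TTK fell by 1.53 and 1.48 on the log2 scale with both drugs, and PTTG1, which encodes securin, by 1.02.

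All 8 kinesins were called lower with both drugs and 7 with osimertinib, with medians of -1.31 and -0.75, and none was called with alpelisib. KIF11 (Eg5), the motor that pushes spindle poles apart, read 6.08 with both drugs, 6.42 with osimertinib, 6.90 with alpelisib and 6.98 with vehicle in the presence of L-histidinol, and 6.09 with both drugs, 6.98 with osimertinib, 7.59 with alpelisib and 7.88 with vehicle in its absence. The vehicle, alpelisib and osimertinib arrays with L-histidinol lay below their counterparts without it, and the both-drug pair was nearly equal. KIF20A, a motor of the central spindle needed for cytokinesis, read 7.82 with both drugs, 8.59 with osimertinib, 8.47 with alpelisib and 8.56 with vehicle in the presence of L-histidinol, and 7.90 with both drugs, 8.63 with osimertinib, 8.64 with alpelisib and 9.17 with vehicle in its absence. Its osimertinib array with L-histidinol was above the vehicle array of that arm, and it was the member least changed by osimertinib, with a fitted -0.25 ± 0.12 that was not called (limma, adjusted p = 0.144). It still fell with both drugs, by 1.00 on the log2 scale. KIF18A, which dampens chromosome movement at the metaphase plate, read 6.93 with both drugs, 7.28 with osimertinib, 7.28 with alpelisib and 7.60 with vehicle in the presence of L-histidinol, and 6.35 with both drugs, 6.94 with osimertinib, 7.28 with alpelisib and 7.66 with vehicle in its absence. Its osimertinib and both-drug arrays were higher with L-histidinol than without it. KIF15, which assists KIF11, and KIF23, the centralspindlin motor, fell furthest of the class with both drugs (-1.85 and -1.83). The fitted changes of KIF2C, a microtubule depolymerase at centromeres, KIF14, a cytokinesis motor, and KIF4A, a chromokinesin, were -1.44, -1.27 and -1.20.

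The 7 centromere and kinetochore genes were all called lower with both drugs and 6 with osimertinib, with medians of -1.64 and -0.64. CENPA, the histone H3 variant that defines the centromere, read 7.92 with both drugs, 8.55 with osimertinib, 8.44 with alpelisib and 8.62 with vehicle in the presence of L-histidinol, and 7.74 with both drugs, 8.24 with osimertinib, 8.70 with alpelisib and 9.02 with vehicle in its absence. Its osimertinib and vehicle arrays in the L-histidinol arm were close together, and its fitted osimertinib change of -0.42 ± 0.14 was near the threshold (limma, adjusted p = 0.0446). CENPF, a large outer kinetochore protein, read 8.57 with both drugs, 9.09 with osimertinib, 9.06 with alpelisib and 9.24 with vehicle in the presence of L-histidinol, and 8.19 with both drugs, 8.74 with osimertinib, 9.14 with alpelisib and 9.46 with vehicle in its absence. The both-drug arrays were the lowest, and the osimertinib array with L-histidinol lay just above the alpelisib array of that arm. NDC80 and NUF2 form one end of the NDC80 complex that grips microtubules, and SPC24 and SPC25 form the other. NDC80 read 6.99 with both drugs, 7.89 with osimertinib, 7.89 with alpelisib and 8.25 with vehicle in the presence of L-histidinol, and 6.43 with both drugs, 7.58 with osimertinib, 8.16 with alpelisib and 8.50 with vehicle in its absence. NUF2 read 7.50 with both drugs, 8.22 with osimertinib, 8.53 with alpelisib and 8.89 with vehicle in the presence of L-histidinol, and 6.87 with both drugs, 7.83 with osimertinib, 8.56 with alpelisib and 8.92 with vehicle in its absence. The both-drug array was higher in the presence of L-histidinol in both genes, by 0.56 for NDC80 and 0.64 for NUF2. SPC24 read 5.88 with both drugs, 6.33 with osimertinib, 6.55 with alpelisib and 6.66 with vehicle in the presence of L-histidinol, and 5.85 with both drugs, 6.89 with osimertinib, 7.31 with alpelisib and 7.55 with vehicle in its absence. SPC25 read 5.61 with both drugs, 6.60 with osimertinib, 7.24 with alpelisib and 7.68 with vehicle in the presence of L-histidinol, and 5.46 with both drugs, 7.05 with osimertinib, 7.87 with alpelisib and 8.40 with vehicle in its absence. In this pair every array of the L-histidinol arm lay below its counterpart except the both-drug array, which lay slightly above. SPC25 had the largest fall of all 50 with both drugs, -2.51 ± 0.17 (limma, adjusted p = 4.87e-07), whereas SPC24 was called lower with both drugs (-1.24 ± 0.17) but not with osimertinib (-0.49 ± 0.17, limma, adjusted p = 0.0507). CENPE, the kinesin that carries chromosomes to the metaphase plate, fell by 1.64 on the log2 scale with both drugs.

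The passenger subunits, spindle assembly factors, and midzone and cytokinesis genes followed the same pattern. With both drugs all 3, 5 and 4 of them were called lower, with medians of -1.34, -1.29 and -1.26, and with osimertinib 3, 4 and 4. BIRC5 (survivin), the passenger subunit that binds phosphorylated histone H3, read 8.63 with both drugs, 9.32 with osimertinib, 9.36 with alpelisib and 9.70 with vehicle in the presence of L-histidinol, and 8.40 with both drugs, 9.25 with osimertinib, 9.74 with alpelisib and 10.23 with vehicle in its absence. The order of the drug treatments was the same in both arms, with osimertinib just below alpelisib in the presence of L-histidinol. The other passenger subunits, CDCA8 (borealin) and INCENP (the scaffold), fell by 1.34 and 0.81 on the log2 scale. TPX2, which activates AURKA on spindle microtubules, read 8.91 with both drugs, 9.64 with osimertinib, 9.62 with alpelisib and 10.03 with vehicle in the presence of L-histidinol, and 8.69 with both drugs, 9.50 with osimertinib, 9.80 with alpelisib and 10.25 with vehicle in its absence. It was called lower with alpelisib too, at -0.43 ± 0.10 (limma, adjusted p = 0.0217). That call was lost with the mean of probe sets (limma, adjusted p = 0.0581) and with no intensity trend (0.107). The spindle proteins DLGAP5 (HURP), HMMR, ASPM and NUSAP1 changed by -1.53, -1.15, -1.29 and -0.98 with both drugs, and NUSAP1 was the one not called with osimertinib (-0.33, limma, adjusted p = 0.118). PRC1, which bundles microtubules of the midzone, read 8.93 with both drugs, 9.28 with osimertinib, 9.59 with alpelisib and 9.77 with vehicle in the presence of L-histidinol, and 8.75 with both drugs, 9.32 with osimertinib, 9.99 with alpelisib and 10.34 with vehicle in its absence. The osimertinib arrays lay between the vehicle and both-drug arrays, nearer to the both-drug arrays. ANLN (anillin), a scaffold of the contractile ring, read 10.27 with both drugs, 10.89 with osimertinib, 11.06 with alpelisib and 11.27 with vehicle in the presence of L-histidinol, and 10.08 with both drugs, 10.98 with osimertinib, 11.38 with alpelisib and 11.68 with vehicle in its absence. It showed a wider gap between both drugs and osimertinib than PRC1 did. ECT2, the exchange factor that activates RhoA at the cleavage site, was called lower with all 3 treatments (-1.17 ± 0.09, -0.63 ± 0.09 and -0.30 ± 0.09 with both drugs, osimertinib and alpelisib). Its alpelisib call stood at the threshold (limma, adjusted p = 0.0495) and was lost with quantile normalization (adjusted p = 0.0575), with the mean of probe sets (0.155), with a probe set not marked for cross-hybridization (0.32) and with no intensity trend (0.154). ARHGAP11A, a GTPase-activating protein, read 4.77 with both drugs, 4.99 with osimertinib, 5.15 with alpelisib and 5.59 with vehicle in the presence of L-histidinol, and 4.08 with both drugs, 4.44 with osimertinib, 5.26 with alpelisib and 6.15 with vehicle in its absence. On 4 of 8 arrays it was below 5, where background weighs more, and its SE of 0.24 was the widest of the 50.

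The 6 chromosome structure genes were called lower with both drugs and with osimertinib, with medians of -1.37 and -0.73. TOP2A, the topoisomerase that untangles sister chromatids, read 9.64 with both drugs, 10.15 with osimertinib, 10.16 with alpelisib and 10.41 with vehicle in the presence of L-histidinol, and 9.21 with both drugs, 9.79 with osimertinib, 10.22 with alpelisib and 10.62 with vehicle in its absence. The alpelisib and osimertinib arrays with L-histidinol were nearly equal. MKI67, the Ki-67 antigen that coats mitotic chromosomes, read 7.72 with both drugs, 8.35 with osimertinib, 8.47 with alpelisib and 8.86 with vehicle in the presence of L-histidinol, and 7.51 with both drugs, 8.31 with osimertinib, 8.88 with alpelisib and 9.51 with vehicle in its absence. Its osimertinib value was almost the same in both arms. NCAPG, a condensin I subunit, read 7.04 with both drugs, 7.71 with osimertinib, 8.07 with alpelisib and 8.45 with vehicle in the presence of L-histidinol, and 6.49 with both drugs, 7.56 with osimertinib, 8.36 with alpelisib and 8.88 with vehicle in its absence. It lost 1.90 log2 units with both drugs, close to NCAPH of the same complex (-1.83), while the core condensin ATPases SMC2 and SMC4 changed by -1.16 and -1.15. The 2 transcription factors differed from each other. FOXM1, which activates G2 and mitosis genes, read 8.59 with both drugs, 8.77 with osimertinib, 8.75 with alpelisib and 9.01 with vehicle in the presence of L-histidinol, and 8.32 with both drugs, 8.66 with osimertinib, 8.87 with alpelisib and 9.23 with vehicle in its absence. MYBL2, whose own transcription is driven by E2F at the G1/S border, read 6.95 with both drugs, 7.65 with osimertinib, 8.03 with alpelisib and 8.86 with vehicle in the presence of L-histidinol, and 7.18 with both drugs, 8.35 with osimertinib, 8.87 with alpelisib and 9.24 with vehicle in its absence. FOXM1 had one of the smaller changes with both drugs, -0.66 ± 0.11 (limma, adjusted p = 0.000298), and MYBL2 one of the larger, -1.99 ± 0.12 (adjusted p = 3.32e-07). With alpelisib MYBL2 was called lower at -0.60 ± 0.12, whereas FOXM1, at -0.31 ± 0.11, was not (limma, adjusted p = 0.011 and 0.0836).

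**Figure D2:**
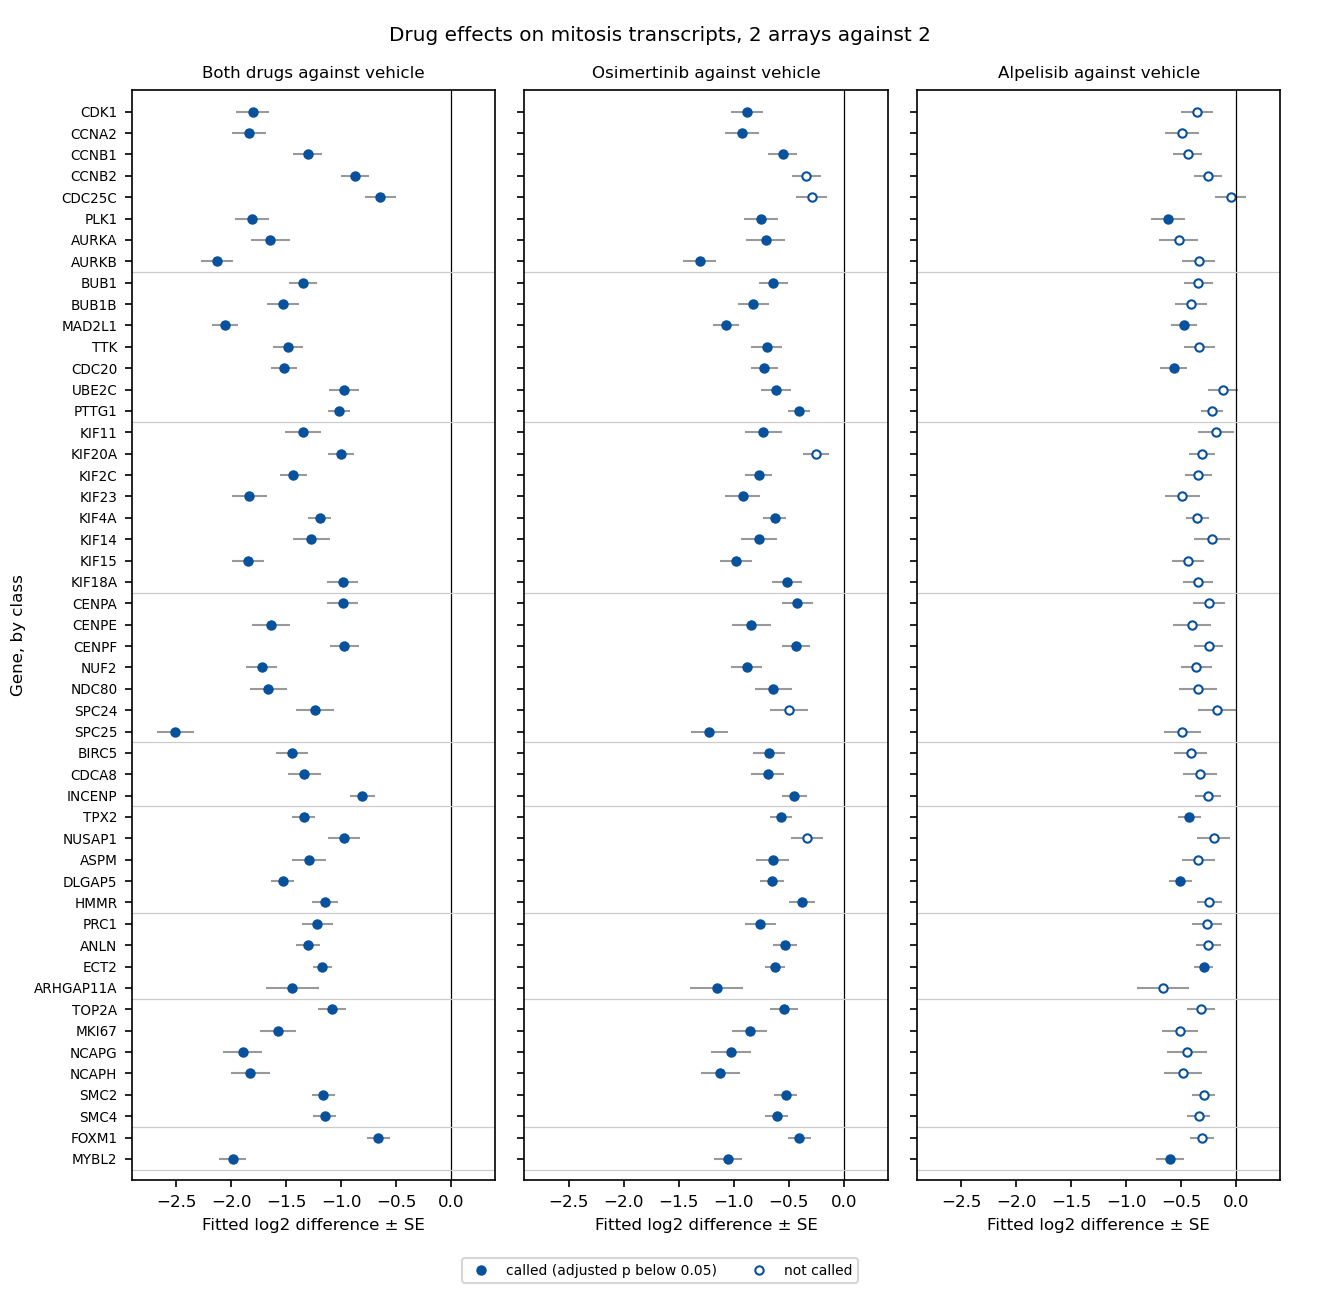
Fitted log2 difference from vehicle (points, with SE bars) for each of the 50 genes with both drugs, osimertinib or alpelisib, 2 arrays against 2 in each panel. Filled points are called at adjusted p below 0.05: 50 with both drugs, 45 with osimertinib and 7 with alpelisib, all of them below 0.

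The number of osimertinib and alpelisib calls rested on single arrays. With 1 array left out, the number called moved for these 50 genes and for all genes. The osimertinib median was -0.58 without the osimertinib array that lacked L-histidinol and -0.45 without the vehicle array that lacked it. It was -0.905 without the vehicle array with L-histidinol. The alpelisib median was -0.23 without the array of alpelisib with L-histidinol and -0.48 without the alpelisib array. With a vehicle array left out it moved as given above. With the mean of probe sets 3 genes (CDC20, DLGAP5 and MYBL2) were called lower with alpelisib, against 2.16% of all genes. With no intensity trend 0 of the 50 were, against 0.779% of all genes. When each array was centred on its median, 24 genes were called lower with alpelisib, against 10.1% of all genes. Before centring the 6 drug arrays had medians of 5.83 to 5.88 and the vehicle arrays 5.74 and 5.76. Centring moved every fitted difference from vehicle by -0.13 with both drugs, -0.11 with osimertinib and -0.08 with alpelisib. With both drugs 50 of 50 were called lower whichever array was left out.

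The combination was set against each drug alone, to see what the second drug added. Against osimertinib 43 of 50 genes were called lower with both drugs, against 7.41% of all genes, with a median of -0.71 (-0.46 without the both-drug array that lacked L-histidinol). The 7 not called were KIF14, PRC1, ARHGAP11A, INCENP, CDC25C, UBE2C and FOXM1, whose fitted differences ran from -0.50 (KIF14) to -0.26 (FOXM1). The widest gaps were those of SPC25 (-1.28 ± 0.17; limma, adjusted p = 0.00108), PLK1 (-1.06 ± 0.15) and NDC80 (-1.02 ± 0.17), and for 48 of 50 genes both arrays with the combination lay below both osimertinib arrays, against 23.2% of all genes. With 1 array left out the number called moved, for these 50 genes and for all genes, so the size of this count rested on single arrays too. The median moved less without the array of osimertinib with L-histidinol, to -0.62. Against alpelisib 50 of 50 were called lower with both drugs, against 14.4% of all genes, with a median of -1.01. Osimertinib against alpelisib gave 12 genes called lower, against 5.51% of all genes, and none higher. The widest of these differences was that of AURKB at -0.97 ± 0.15 (limma, adjusted p = 0.00205), followed by SPC25 at -0.73 ± 0.17, and KIF20A was the one gene above 0, at 0.06 ± 0.12. The median difference between osimertinib and alpelisib was -0.30. It was -0.20 without the alpelisib array and -0.41 without the array of alpelisib with L-histidinol. The count of 12 moved with the array left out, as did the number called over all genes.

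The fitted log2 change with both drugs was also set against the sum of the changes with each drug alone. It lay below that sum for 48 of 50 genes, with a median departure of -0.34 (range -0.80 to 0.38), but none of the 50 was called in limma with additive L-histidinol and drug terms, where 0.0303% of all genes were called. At an unadjusted p under 0.05, 15 of the 50 passed. The largest departures were those of SPC25 (-0.80 ± 0.24; limma, adjusted p = 0.347) and NDC80 (-0.67 ± 0.24; adjusted p = 0.433). The 2 genes above 0 were ARHGAP11A (0.38 ± 0.34) and FOXM1 (0.05 ± 0.15). With all 2-way terms of L-histidinol, osimertinib and alpelisib in the model, a choice made after seeing the data, 39 of 50 were called and 6.14% of all genes. Without the array of both drugs with L-histidinol 4 of the 50 were called. The median departure moved to -0.11 without the both-drug array that lacked L-histidinol and to -0.13 without the vehicle array with L-histidinol, and to -0.58 and -0.54 without the other array of each of these treatments (vehicle without L-histidinol, and both drugs with it).

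Averaged over the drug treatments, the number of these genes called lower with L-histidinol was near the share of all genes called lower. In the additive fit 6 of 50 genes were called lower with L-histidinol and none higher, against 9.17% of all genes called lower, with a median of -0.06 (range -0.54 to 0.24). The 6 were SPC24 (-0.54 ± 0.12), MYBL2 (-0.54 ± 0.09), KIF11 (-0.54 ± 0.12), AURKB (-0.47 ± 0.11), SPC25 (-0.41 ± 0.12) and SMC2 (-0.26 ± 0.07), with limma adjusted p between 0.00153 (MYBL2) and 0.0305 (SMC2). NUF2 (0.24 ± 0.10) and KIF18A (0.22 ± 0.10) stood at the upper end and were not called. Among genes with a mean log2 intensity of at least 5, 6 of the 50 were called lower, against 15.8% of all such genes. The count was 21 lower and 7 higher with all 2-way terms, where 15.3% of all genes were called lower. With the mean of all probe sets of a gene 2 were called lower (MYBL2 and KIF11), against 7.17% of all genes. With 1 array left out the count moved, as did the number called over all genes. Without the vehicle array or without its L-histidinol counterpart the median itself was 0.06. The median was -0.19 without either both-drug array, -0.14 without either osimertinib array and -0.0046 without either alpelisib array. The ACTB ratio given above also differed with L-histidinol, and its part in these differences was not tested.

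Taken one background at a time, as differences of 2 single arrays and hence with no test, the L-histidinol response of the mitosis genes differed in sign between backgrounds with and without osimertinib. In both drugs 47 of 50 genes were higher with L-histidinol, with a median of 0.26, and 7 were higher by at least 0.5 log2 units, against 1.95% of all genes. In osimertinib 31 of 50 were higher, with a median of 0.12, and by at least 0.5 only ARHGAP11A was higher, against 2.98% of all genes, and 4 were lower (MYBL2, SPC24, KIF11 and AURKB), against 2.98% as well. In alpelisib 49 of 50 were lower with L-histidinol, with a median of -0.26, and 5 were lower by at least 0.5, against 1.79% of all genes. In vehicle 49 of 50 were lower, with a median of -0.39, and 14 were lower by at least 0.5, against 3.62% of all genes. The median over all genes lay between -0.01 and 0.01 in each background. By class, the median response of the kinases, cyclins and CDC25C was 0.39 in both drugs and 0.23 in osimertinib, against -0.17 in alpelisib and -0.43 in vehicle. That of the kinetochore genes was 0.28 in both drugs and 0.31 in osimertinib, against -0.26 in alpelisib and -0.40 in vehicle. Other classes did not all rise in osimertinib: 2 of 3 passenger subunits (CDCA8 and INCENP) were lower there, with a median of -0.20, as were 3 of 4 midzone and cytokinesis genes (-0.045) and 3 of 6 chromosome structure genes (-0.04), and the 2 transcription factors had a median of -0.29. The kinesins were split, 4 lower and 4 higher, from -0.55 for KIF11 to 0.48 for KIF14.

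**Figure D3:**
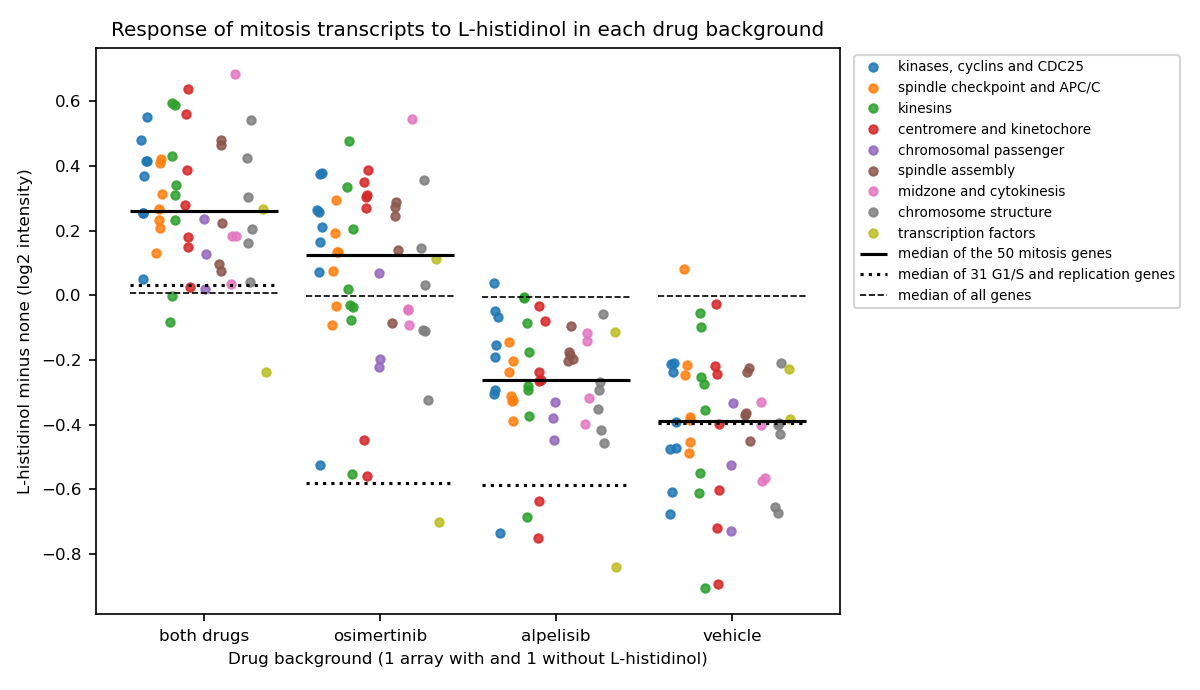
Log2 intensity with L-histidinol minus without it for each of the 50 genes (points, coloured by class) in each drug background, 1 array against 1. The median of the 50 (solid line) is 0.26 in both drugs, 0.12 in osimertinib, -0.26 in alpelisib and -0.39 in vehicle; dotted and dashed lines give 31 G1/S and replication genes and all genes.

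The difference in response was tested in a limma fit with all 2-way terms. The L-histidinol by osimertinib term is the response with osimertinib present minus the response with it absent. It was called above 0 for 46 of 50 genes and below 0 for none, against 2.91% of all genes called higher, with a median of 0.52. This fit has 1 residual degree of freedom and leans on a prior of 103 degrees of freedom shared over all genes. With the prior of the additive fit, or with no intensity trend, none of the 50 and no gene at all was called, although 46 and 44 of the 50 had an unadjusted p under 0.05. With the mean of all probe sets of a gene 29 were called, against 0.703% of all genes called in either direction. The largest terms were those of ARHGAP11A (0.96 ± 0.17) and AURKA (0.72 ± 0.08; limma, adjusted p = 3.02e-11), and CDK1 and CCNB1 stood at 0.62 ± 0.08 and 0.53 ± 0.07. The 4 genes not called were SMC2 (0.23 ± 0.10), ECT2 (0.23 ± 0.08), INCENP (0.23 ± 0.15) and MYBL2 (0.14 ± 0.10; limma, adjusted p = 0.559). The same difference can be read in 2 sets of 4 arrays that have no array in common. The fitted term is the mean of these 2 differences, so they describe its parts and are no further test of it. Without alpelisib, the response in osimertinib minus that in vehicle was above 0 for 49 genes, with a median of 0.52. With alpelisib, the response in both drugs minus that in alpelisib was above 0 for 50 genes, with a median of 0.57. Both were above 0 for 49 of 50 genes (98.0%), against 32.4% of all genes, and MYBL2 was the exception at -0.32 and 0.60. The L-histidinol by alpelisib term was called above 0 for 2 of 50 genes, AURKA (0.31 ± 0.08) and CDCA8 (0.31 ± 0.09), against 0.784% of all genes called higher, with a median of 0.17. Both calls were lost with each array centred, with quantile normalization and with the mean of probe sets. With probe sets not marked for cross-hybridization the 1 gene called was CCNB1 (0.37), CDCA8 had no such probe set, and the one of AURKA, with a mean log2 intensity of 3.84, gave 0.09 for this term and -0.44 for that with osimertinib, neither of them called. The largest fitted values of the alpelisib term were those of KIF11 (0.39 ± 0.12) and SPC24 (0.36 ± 0.13), neither of them called. Among genes with a mean log2 intensity of at least 5, KIF11 was called as well (limma, adjusted p = 0.0486). MAD2L1 was the one gene below 0, at -0.02 ± 0.09.

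**Figure D4:**
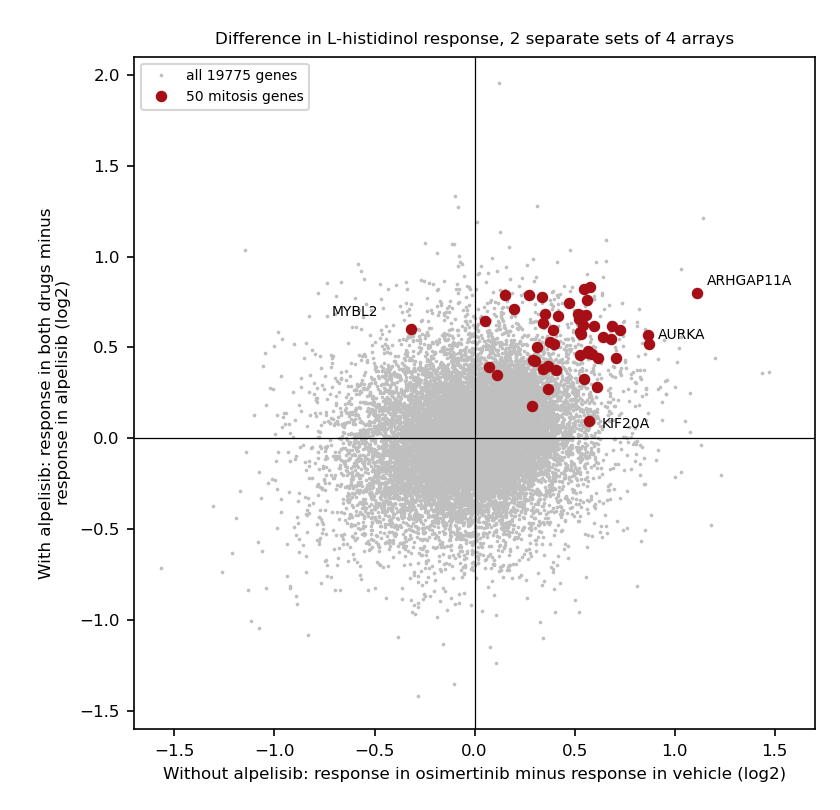
Difference in L-histidinol response (log2) in 2 sets of 4 arrays with none in common: in osimertinib minus in vehicle (x axis) and in both drugs minus in alpelisib (y axis). Red points are the 50 mitosis genes and grey points all 19775 genes; 49 red points lie above 0 on both axes, and MYBL2 lies left of 0 on the x axis.

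Read from the side of the drugs, the same values show smaller differences from vehicle in the presence of L-histidinol. In single arrays the median over the 50 genes was -0.995 with L-histidinol and -1.72 without it for both drugs, -0.43 and -0.90 for osimertinib, and -0.30 and -0.38 for alpelisib. CCNB1 is an example, with a difference of osimertinib from vehicle of -0.25 with L-histidinol and -0.86 without it. Not every gene did so. The differences of MYBL2 from vehicle were wider with L-histidinol than without it for osimertinib (-1.21 and -0.89) and alpelisib (-0.83 and -0.38), and narrower for both drugs (-1.91 and -2.06). MYBL2 was lower with L-histidinol in every background, with differences of -0.24 in both drugs, -0.70 in osimertinib, -0.84 in alpelisib and -0.38 in vehicle. SPC24 gave 0.03 in both drugs, -0.56 in osimertinib, -0.75 in alpelisib and -0.89 in vehicle. AURKB gave 0.05 in both drugs, -0.52 in osimertinib, -0.73 in alpelisib and -0.68 in vehicle. These genes, with KIF11 and SPC25, were the 5 with the lowest responses in osimertinib, from -0.70 (MYBL2) to -0.45 (SPC25), while the other 45 genes ranged from -0.32 (SMC2) to 0.54 (ARHGAP11A) there.

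Genes of the same pathway outside the 50 were described by lists drawn up by function, also with earlier results of these data known. Of 68 other mitosis genes 64 were called lower with both drugs and 2 higher, against 19.2% and 21.4% of all genes, with a median of -1.30. With osimertinib 57 were called lower, against 14.0% of all genes, with a median of -0.70. CENPK of the inner kinetochore fell by 1.97 on the log2 scale with both drugs, and HJURP, the chaperone that loads CENPA, fell by 1.89. The L-histidinol by osimertinib term was called above 0 for 44 of these 68, against 2.91% of all genes, with a median of 0.39. All 31 measured G1/S and replication genes were called lower with both drugs and with osimertinib, against 19.2% and 14.0% of all genes. Beside the medians of -1.34 and -0.67 for the 50 mitosis genes stood -2.05 and -1.17 for these 31. MCM10 (-3.46) and CDC6 (-2.85), which load and activate the replicative helicase, were the furthest. For these 31 genes the median L-histidinol response was 0.03 in both drugs and -0.58 in osimertinib, against -0.58 in alpelisib and -0.40 in vehicle. In osimertinib 31 of the 50 mitosis genes were thus higher with L-histidinol, whereas 29 of the 31 replication genes were lower. This contrast held in the arrays without alpelisib only. There the response in osimertinib minus that in vehicle had a median of -0.12 for the replication genes and 0.52 for the 50. In both drugs minus in alpelisib it was 0.61 and 0.57, above 0 for all 31. The L-histidinol by osimertinib term was called above 0 for 11 of the 31, against 2.91% of all genes, with a median of 0.26. TYMS, thymidylate synthase, fell by 0.95 with L-histidinol in the additive fit, and 20 of the 31 were called lower, against 9.17% of all genes. Among 11 DREAM and MuvB subunits 7 were called lower and 3 higher with both drugs, against 19.2% and 21.4% of all genes. RBL1 (p107) and LIN9, a MuvB subunit, fell by 1.43 and 1.11, and RBL2 (p130) rose by 1.14 ± 0.08 (limma, adjusted p = 5.63e-07). Cohesin and the APC/C core moved less: 5 of 9 and 7 of 14 were called lower with both drugs, against 19.2% of all genes, with medians of -0.24 and -0.20. In each list 1 was called higher, against 21.4% of all genes. In cohesin SMC1A fell by 0.87 and STAG2 rose by 0.54 ± 0.06 (limma, adjusted p = 3.4e-05). FZR1 (CDH1), the APC/C activator of late mitosis and G1, rose by 0.55 ± 0.11.

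The probe sets of the 50 genes were checked against each other. The genes had 93 probe sets, 25 genes had a single one, and for 21 genes the name of the probe set used marks possible cross-hybridization. With both drugs 92 of the 93 were below 0, with a median of -1.30, and with osimertinib 90 were. The L-histidinol by osimertinib term was above 0 in 90 of 93. All 77 probe sets with a mean log2 intensity of at least 5 had the same sign as the rest of the list in each of these 3 contrasts. Of the 6 genes called lower with L-histidinol, SMC2 had a probe set not marked for cross-hybridization that gave -0.07 (limma, adjusted p = 0.725), and SPC24 and AURKB gave -0.28 and -0.31 as the mean of all their probe sets, neither of them called.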

How the data were processed

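Per the submitters' processing notes, the authors used RMA and affy, with no version given in the sources used here. The deposited table holds linear intensity values for 54675 probe sets on 8 Affymetrix arrays, and log2 of it was taken here. A log2 table had been assumed when the tests were chosen. Probe sets were named from the platform annotation: 41091 had 1 symbol, 1801 several and 11721 none. The probe set with the highest mean among those with 1 symbol stood for each of 19775 genes. limma 3.58.1 (R 4.3.3, lmFit and eBayes with trend) was fitted to all 8 arrays, with Benjamini-Hochberg adjustment over all genes. The terms were L-histidinol and 4 drug treatments, additive (3 residual degrees of freedom, prior 8.08), or all 2-way terms (1 residual, prior 103). On simulated data the additive fit called 37.5% of changes of 0.5 log2 units in the osimertinib contrast and 82% in the L-histidinol contrast. For changes of 1 unit the shares were 97.5% and 99.5%. The simulated noise was independent and held no departure from additivity, so it cannot test the error of the fits to these arrays. Alternatives changed normalization, probe set choice, the dim filter (mean log2 intensity of at least 5), variance model, terms and arrays used. All 50 genes may be named; values on all arrays were fixed by rule for 22 genes and for the 2 largest changes in each direction per contrast. The genes and lists were chosen with earlier results of these data known. Genes of the lists with no value, CIT and ANAPC1 among them, were left out. The number of arrays limits the precision.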

Additional observations from a re-analysis of the deposited data

Results flagged for a closer look

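In the test of the difference itself, 46 of the 50 mitosis genes had a response to L-histidinol that was higher with osimertinib present than with it absent, in limma with all 2-way terms. The share of all genes called higher for this term was 2.91%. In the same fit 2 of the 50, AURKA and CDCA8, had a higher response with alpelisib present than with it absent, against 0.784% of all genes. Both counts were 0 with the prior of the additive fit, and neither of these 2 was called for that term with probe sets not marked for cross-hybridization, which CDCA8 lacks.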

How the results depend on the processing

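With both drugs against vehicle, every alternative called all members measured lower except the use of probe sets not marked for cross-hybridization (37 of 40). The other counts moved as follows. With all 2-way terms, 46 genes were called lower for alpelisib, 41 for osimertinib against alpelisib and 21 for L-histidinol. The shares of all genes were 11.9%, 11.5% and 15.3%. For the departure from the summed single drugs 39 were called, against 6.14% of all genes, an alternative added after seeing the data. Centring each array gave 24 for alpelisib, against 10.1% of all genes, and 0 for the L-histidinol by alpelisib term, as did quantile normalization for that term. The mean of probe sets gave 3 for alpelisib, 28 for both drugs against osimertinib, 4 for osimertinib against alpelisib and 2 for L-histidinol. The shares of all genes were 2.16%, 4.58%, 3.82% and 7.17%. The mean of probe sets also gave 29 for the L-histidinol by osimertinib term, against 0.703% of all genes, and 0 for that with alpelisib. Without an intensity trend the counts were 0 for alpelisib, 25 for both drugs against osimertinib and 1 for osimertinib against alpelisib. The shares of all genes were 0.779%, 2.61% and 2.58%. Both L-histidinol by drug terms gave 0 without an intensity trend and also with the prior of the additive fit. Unmarked probe sets, available for 40 genes, gave 4 for alpelisib and 28 for both drugs against osimertinib, against 3.08% and 5.47% of all genes. They gave 1 for the L-histidinol by alpelisib term (CCNB1, neither AURKA nor CDCA8). The dim filter added KIF11 to AURKA and CDCA8 for that term. Leaving out 1 array at a time gave 26 to 50 for osimertinib, 0 to 33 for alpelisib, 50 to 50 for both drugs, 8 to 49 and 42 to 50 for both drugs against osimertinib and against alpelisib, 0 to 23 for osimertinib against alpelisib, 1 to 19 for L-histidinol and 0 to 4 for the departure. The median L-histidinol difference turned to 0.0554 without the vehicle array or its L-histidinol counterpart, and was -0.1868 without either both-drug array, where the cause was not tested; leaving arrays out for medians was chosen after seeing the data. The other medians kept their sign, with ranges of -0.58 to -0.11 for the departure, -0.54 to -0.16 for alpelisib and -0.95 to -0.46 for both drugs against osimertinib.

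With 1 array per condition, no repeat culture gives an error, and departures from additivity enter it. The share of all genes called also moved when an array was left out. Counts with an array left out therefore describe the fit as well as the mitosis genes. The L-histidinol by drug terms could not be fitted with an array left out. No paired analysis was possible because each condition has 1 array and no replicate to pair, beyond the additive fit, which already sets arrays with and without L-histidinol side by side within each drug treatment. Probe sets near a log2 intensity of 5 or below, such as those of ARHGAP11A, are limited by background.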
